A study of Mus with 21 samples.

Results

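The levels of 10 astrocyte genes were followed in the RNA of whole embryonic mouse brain: *Gpr37l1*, *Gfap*, *Aqp4*, *Aldh1l1*, *Aldoc*, *Slc1a2*, *Slc1a3*, *Gja1*, *Gjb6* and *S100b*. They were taken by gene name, 10 of the 55335 genes in the counts table, and all 10 were among the 30552 genes that passed the filter on low counts. *Gpr37l1* was selected on its decrease in *Nipbl+/-* and double heterozygous brain, so its values are a description and carry no test. The other 9 genes were chosen by name as astrocyte genes, with earlier results of these data known.

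Astrocytes arise from radial glia, which make neurons first and glia later, so the late embryonic brain holds astrocytes that are young and few beside its neurons. *Slc1a3* (GLAST) and *Slc1a2* (GLT-1) encode the glutamate transporters that clear transmitter from around synapses, and *Slc1a3* is already made by radial glia. *Aqp4* encodes the water channel of the astrocyte end-feet on blood vessels, and *Gja1* (connexin 43) and *Gjb6* (connexin 30) the gap junction proteins that couple astrocytes. *Gfap* encodes the intermediate filament protein by which astrocytes are often recognised, *Aldh1l1* a cytosolic folate enzyme, *Aldoc* the brain form of the glycolytic enzyme aldolase, and *S100b* a calcium-binding protein. *Gpr37l1* encodes an orphan-family G protein-coupled receptor of astrocytes and their precursors.

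RNA came from whole brains of female embryos at E17.5. The 21 libraries fell into 4 groups: wild type (*WT*, Wapl +/+ and Nipbl +/+, n = 5), heterozygotes with a *Nipbl* null allele (*Nipbl+/-*, n = 3), heterozygotes with a *Wapl* deletion (*WaplΔ/+*, n = 7), and double heterozygotes that carried both mutations (n = 6). *Nipbl* encodes the protein that helps load the cohesin ring on DNA, and *Wapl* the protein that releases it; the study asked whether a loss of *Wapl* offsets a loss of *Nipbl*. The *WaplΔ* allele lacks the promoter and the first exons, and the *Nipbl* null allele was made in the germ line of sires with *Stra8-icre*, so each mutation was present in every cell of the embryo and not in astrocytes alone. The embryos came from 2 kinds of cross, and the litter of each library is not given in the sources used here.

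Total counts per library ran from 25682566 to 35818767, with a median of 31830396. *Nipbl* stood at 54.3% ± 4.52 of the *WT* mean in *Nipbl+/-* (SD, n = 3) and at 54.8% ± 1.79 in double heterozygotes (n = 6), and *Wapl* at 46.7% ± 4.51 in *WaplΔ/+* (n = 7) and at 49.3% ± 1.90 in double heterozygotes. The mitochondrial transcript *mt-Nd3* had 52 to 106 counts in 9 libraries and 0 to 6 in the other 12. All 3 *Nipbl+/-* libraries were in the low set, 2 of 5 *WT*, 5 of 7 *WaplΔ/+* and 2 of 6 double libraries were in the high set, and in 13 of 13 libraries with the *Wapl* deletion the set followed the order in which the labels write the *Wapl* alleles. Results were therefore also computed within the low set.

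Every one of the 10 genes was counted in every library. *Gpr37l1* was the most thinly covered, with 12 to 109 reads per library, and *S100b* had 36 to 136, while *Slc1a3* had 5588 to 9420. *Gpr37l1* spans chr1:135160250-135167681 in GRCm38.p6 and *Slc1a3* chr15:8634124-8710807, and *Slc1a3* begins 169 kb beyond the end of *Nipbl* on the same chromosome. The spans of *Aqp4*, *Aldh1l1* and *Slc1a2* overlap other annotated genes. The largest of these in the table, *Gm15756* within *Aldh1l1*, averaged 233 counts beside 2287 for *Aldh1l1*. The strand setting of the counting is not given in the sources used here, so reads from such a neighbour cannot be told apart from those of the gene itself.

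*Gpr37l1* RNA was low in every library that carried the *Nipbl* mutation. The 5 *WT* libraries had 82.5, 73.9, 66.8, 106 and 68.0 TMM-normalized counts, that is, counts scaled by library size and composition. The 3 *Nipbl+/-* libraries had 14.9, 42.8 and 20.1, and the 6 double heterozygous libraries ran from 13.1 through a median of 28.2 to 47.9. All 9 lay below the lowest *WT* library, and replicate 2 was the highest of the *Nipbl+/-* group. The 7 *WaplΔ/+* libraries ran from 31.6 through 51.8 to 104, so that this group reached from below to within the *WT* range, with 4 of 7 libraries below all *WT* libraries. Expressed against *WT*, *Gpr37l1* stood at 32.7% ± 18.7 in *Nipbl+/-* (SD, n = 3), 37.1% ± 17.9 in double heterozygotes (n = 6) and 77.5% ± 31.5 in *WaplΔ/+* (n = 7). The log2 fold changes were -1.61, -1.40 and -0.36, in that order. The *Nipbl+/-* and double groups overlapped along nearly their whole range. Within the low *mt-Nd3* set the means were 34.9% of *WT* in *Nipbl+/-* (3 libraries against 3) and 39.5% in double heterozygotes (4 libraries against 3).

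**Figure D1:**
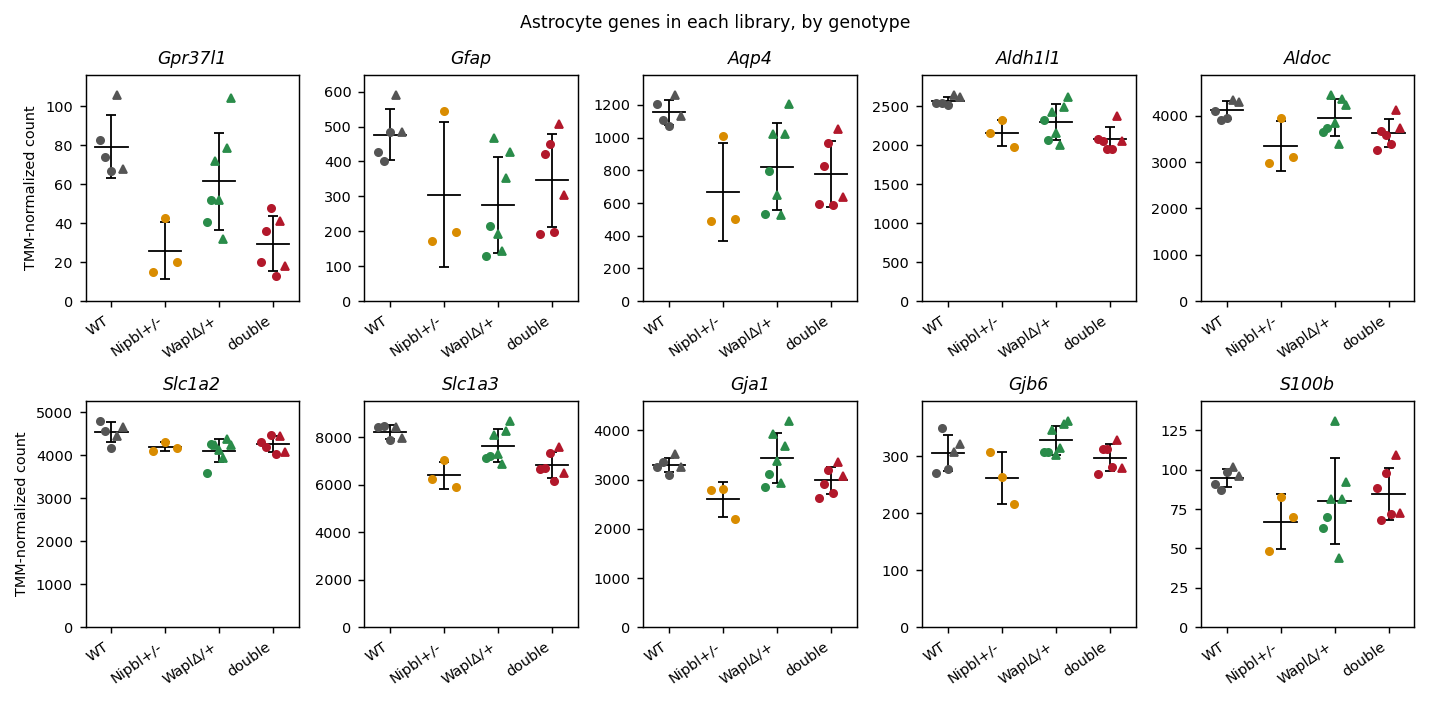
TMM-normalized counts (vertical axes, from 0) of the 10 astrocyte genes in each of the 21 libraries by genotype; a point is 1 library, circles are libraries with low and triangles with high mt-Nd3, the long bar is the mean and the whisker its SD. Gpr37l1 lay below all WT libraries in all 3 Nipbl+/- and all 6 double heterozygous libraries. It spread widely within each mutant group, as did Gfap, Aqp4 and S100b.

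The first comparison asked what the loss of a *Nipbl* copy did to the other astrocyte genes. In *Nipbl+/-* brain 6 of the 9 genes fell: *Aqp4*, *Slc1a3*, *Gja1*, *Aldoc*, *Aldh1l1* and *S100b*. None rose. Their decreases ran from -0.26 (*Aldh1l1*) to -0.79 (*Aqp4*) on the log2 scale. *Gfap*, *Slc1a2* and *Gjb6* did not pass the test, with estimates also below 0. All 9 had an unadjusted p below 0.05, as did 6117 of the 30552 genes tested. DESeq2 called 7 of the 9, and its count over all genes is not given here. The test was edgeR's quasi-likelihood test, adjusted over all 30552 genes, and a gene was called at an adjusted p below 0.10. By that rule 11.2% of all genes were called, 6.96% lower and 4.25% higher, and of those averaging 100 or more normalized counts, as 8 of the 9 did, 20.5% were. In bulk tissue fewer astrocytes and less RNA per astrocyte cannot be told apart.

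Of the glutamate transporters, *Slc1a3* was called and *Slc1a2* was not; the difference between the genes was not tested. *Slc1a3* had 8445, 8487, 7880.2, 8452 and 7959.9 normalized counts in *WT* and 6244, 7046 and 5921 in *Nipbl+/-*. All 3 mutant libraries lay well below the lowest *WT* library, at 77.7% ± 7.02 of the *WT* mean (log2 fold change -0.37, SE 0.0495, adjusted p = 0.000205 by edgeR). *Slc1a2* had 4781, 4567, 4171, 4454 and 4657 in *WT* and 4097, 4311 and 4171 in *Nipbl+/-*. Of the mutant libraries 2 of 3 lay below the *WT* range and 1 within it, with a log2 fold change of -0.12 (SE 0.0420, edgeR adjusted p = 0.109). *Slc1a2* was called by DESeq2 (adjusted p = 0.0965) and by edgeR among genes averaging 100 counts or more (adjusted p = 0.0688).

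Among the channel and junction genes, *Aqp4* differed most. Its *WT* libraries had 1208, 1110.2, 1069, 1260.2 and 1135 normalized counts, and the *Nipbl+/-* libraries 491, 1013 and 502. Replicates 1 and 3 were at 42.5% and 43.4% of the *WT* mean and replicate 2 just under the lowest *WT* library, which gave 57.8% ± 25.8 of the *WT* mean (log2 fold change -0.79, SE 0.157, edgeR adjusted p = 0.00415). Without replicate 2 the *Aqp4* value was -1.23. *Gja1* had 3264, 3354, 3102, 3512 and 3245 in *WT* against 2784, 2808 and 2197, again with no overlap (-0.35, SE 0.0635, edgeR adjusted p = 0.00216), and -0.23 without replicate 3, where it was still called. *Gjb6*, the second connexin, had 272, 349.9, 278, 309 and 322 in *WT* and 307, 263 and 216 in *Nipbl+/-*. The ranges of *Gjb6* overlapped and it was not called (-0.22, SE 0.106, edgeR adjusted p = 0.245).

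*Gfap* was divided within the mutant group. It had 428, 401, 483, 589.8 and 483 normalized counts in *WT*, and 173, 544 and 197 in *Nipbl+/-*. Replicates 1 and 3 were far below every *WT* library, while replicate 2 was within the *WT* range, so that the log2 fold change of -0.64 (SE 0.244) had an edgeR adjusted p of 0.129. Without replicate 2 it was -1.38, with an adjusted p of 2.2e-06, and without replicate 1 or 3 it was -0.35 or -0.40 and not called.

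The enzymes and *S100b* showed smaller or less even changes. *Aldh1l1* was very even in *WT*, with 2535, 2538, 2521, 2643 and 2614 normalized counts, and the *Nipbl+/-* libraries had 2159, 2318 and 1980.4, all lower (-0.26, SE 0.0462, edgeR adjusted p = 0.00177). *Aldoc* had 4114, 3903, 3947, 4343 and 4299 in *WT* and 2977, 3957 and 3110.0 in *Nipbl+/-*, where replicate 2 again lay within the *WT* range (-0.30, SE 0.0694, edgeR adjusted p = 0.0103). *S100b* had 90.5, 87.2, 98.2, 102 and 96.0 in *WT* and 48.7, 82.6 and 69.9 in *Nipbl+/-*, with no overlap (-0.50, SE 0.151, edgeR adjusted p = 0.0493). The call of *S100b* was lost without *Nipbl+/-* replicate 1 (log2 fold change -0.31, adjusted p = 0.293). In all, 5 of the 9 genes had every *Nipbl+/-* library below every *WT* library, which held for 6.9% of all genes tested. The median log2 fold change of the 9 was -0.35, against -0.01 over all genes. Within the low *mt-Nd3* set, where 3 libraries met 3, *Aqp4*, *Aldh1l1*, *Slc1a3* and *Gja1* were called.

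**Figure D2:**
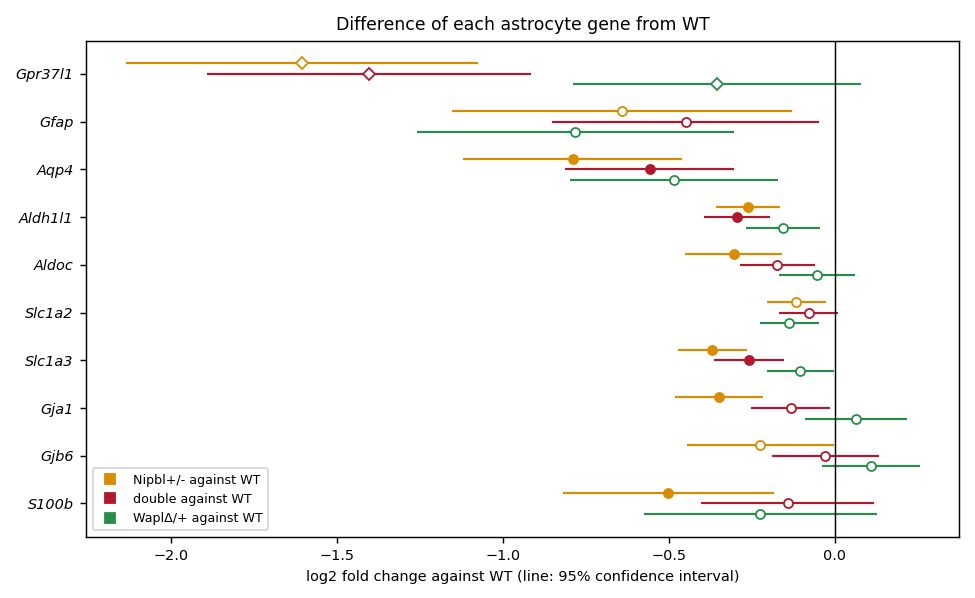
Log2 fold change of each astrocyte gene against WT (horizontal axis) in Nipbl+/-, double heterozygous and WaplΔ/+ brain, with its 95% confidence interval; filled circles passed the test at an adjusted p below 0.10, open circles did not, and open diamonds mark Gpr37l1, which was not tested. Gpr37l1 was selected on its decrease in Nipbl+/- and double brain, so its intervals are a description and cannot be read as a test. Aqp4, Aldh1l1 and Slc1a3 are filled in both the Nipbl+/- and the double comparison, and no gene is filled for WaplΔ/+.

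Double heterozygotes were compared with the same *WT* libraries, so their differences are not independent of those of *Nipbl+/-*. In double heterozygous brain 3 of the 9 genes fell, *Aqp4*, *Aldh1l1* and *Slc1a3*, and none rose. Over all genes 3.28% were called, 2.46% lower and 0.812% higher, and 6.02% of those averaging 100 or more normalized counts. The same 3 genes had every double library below every *WT* library, which held for 2.29% of all genes. The share among genes averaging 100 or more was not computed. The median of the 9 was -0.17, against 0.00 over all genes.

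*Aqp4* ran from 589 through a median of 731 to 1053 normalized counts in the 6 double libraries. The highest of them, replicate 5, was just under the lowest *WT* library, and the group stood at 67.3% ± 17.4 of *WT* (log2 fold change -0.56, SE 0.122, edgeR adjusted p = 0.0213). *Aldh1l1* ran from 1948 through 2059 to 2369, and its fold change of -0.30 (SE 0.0481, edgeR adjusted p = 0.00275) was similar in size to that of *Nipbl+/-*. *Slc1a3* ran from 6181 through 6686 to 7614, with a log2 fold change of -0.26 (SE 0.0507, edgeR adjusted p = 0.0106).

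The other 6 did not pass. *Gfap* ran from 193 through 363 to 506 normalized counts, with 3 of 6 libraries below the *WT* range (-0.45, edgeR adjusted p = 0.298). *Aldoc* ran from 3263 through 3623 to 4137 and had 5 of 6 libraries below the *WT* range (-0.17, edgeR adjusted p = 0.116). *Gja1* ran from 2635 through 2993 to 3358 (-0.13, edgeR adjusted p = 0.295). *Slc1a2* (-0.08), *Gjb6* (-0.03) and *S100b* (-0.14) had intervals that spanned 0. Replicate 5 was the double library closest to *WT*. Without it *Gfap*, *Aldoc* and *Gja1* were called as well, which made 6 of 9, while all genes called rose from 1001 to 2504. Within the low *mt-Nd3* set (4 libraries against 3) *Aldoc* was called beside the same 3 genes, and in 1 fit of all 4 groups the call of *Aqp4* was lost (adjusted p = 0.188).

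In *WaplΔ/+* brain none of the 9 genes was called by edgeR, while 5 of 9 had an unadjusted p below 0.05 and DESeq2 called 2. Over all genes 2.22% were called, 1.45% lower and 0.769% higher, and 3.82% of those averaging 100 or more normalized counts. None of the 9 had every *WaplΔ/+* library below every *WT* library, as 0.471% of all genes did. The libraries of this genotype spread more widely than those of *WT* for 9 of the 10 genes by the coefficient of variation, the exception being *Gjb6* (7.69% against 10.54%). The difference was wide for *Gfap* (50.3% against 15.2%) and slight for *Slc1a2* (6.48% against 5.12%). The share of all genes with a wider spread in *WaplΔ/+* was not computed, and the paper reports more variance between samples in mutant transcriptomes as a whole. The genes share their libraries and are not separate observations of spread.

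*Gfap* had the lowest estimate, at 57.6% ± 29.0 of *WT* (SD, n = 7). Its *WaplΔ/+* libraries ran from 129 through a median of 214 to 466 normalized counts, with 5 of 7 below the *WT* range (-0.78, SE 0.229, edgeR adjusted p = 0.107). *Aqp4* ran from 529.5 through 795 to 1203 (-0.48, SE 0.15, edgeR adjusted p = 0.125). For both genes replicates 1, 2, 4 and 5 were the lowest libraries of the genotype, and replicates 3, 6 and 7 lay near or within the *WT* range. *Gpr37l1* had the same 4 libraries below *WT*. Replicates 1 and 2 belonged to the low *mt-Nd3* set, while 4 and 5, like 3, 6 and 7, belonged to the high set. Both low-set libraries were thus among the lowest, and every library near *WT* was of the high set. Against *WT* libraries of its own set, *Gfap* stood at 39.2% (low) and 58.9% (high). *Aqp4* stood at 58.9% and 73.9%, and *Gpr37l1* at 62.1% and 77.9%. Whether the set had a part in this division was not tested. Within the low set alone the *Gfap* log2 fold change was -1.35 (edgeR adjusted p = 0.00892, 2 libraries against 3). The *Aqp4* value there was -0.76 (edgeR adjusted p = 0.0453).

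The transporters, connexins and enzymes moved less in *WaplΔ/+*. *Slc1a2* ran from 3584 through 4224 to 4376 normalized counts (-0.14, SE 0.0422, edgeR adjusted p = 0.123), and *Aldh1l1* from 2006 through 2330.0 to 2623 (-0.16, SE 0.0531, edgeR adjusted p = 0.158). *Slc1a3* ran from 6871 through 7307 to 8676, from below to above *WT* (-0.10, edgeR adjusted p = 0.305). *Gja1* (0.06) and *Gjb6* (0.11) were the only members with estimates above 0, and the *Gja1* libraries reached from 2852 to 4179.6. *Aldoc* (-0.05) and *S100b* (-0.23) had intervals that spanned 0. The median of the 9 was -0.14, against 0.00 over all genes.

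Direct comparisons of the mutant groups called none of the 9 genes by edgeR. Between double heterozygotes and *Nipbl+/-*, where 0.00655% of all genes were called, 1 of the 9 and 1259 of all genes had an unadjusted p below 0.05. The 1 was *Gja1*, which was higher in the double group by 0.20 (95% interval 0.02 to 0.39). The interval for *Aqp4* ran from -0.25 to 0.70 and that for *Gfap* from -0.54 to 0.91, so for these genes a sizeable difference either way could not have been detected with 3 *Nipbl+/-* libraries. For *Slc1a3* it ran from -0.06 to 0.26 and for *Aldh1l1* from -0.19 to 0.10. DESeq2 called none of the 9 in this comparison.

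Between double heterozygotes and *WaplΔ/+*, where 1.02% of all genes were called, DESeq2 called none of the 9, beside 626 of all genes. An unadjusted p below 0.05 was found for 4 of the 9 and for 3037 of all genes. The 4 were *Slc1a3* (-0.16), *Gja1* (-0.20), *Aldh1l1* (-0.14) and *Gjb6* (-0.14), all lower in the double group. Between *Nipbl+/-* and *WaplΔ/+*, with 1.16% of all genes called, 4 of the 9 and 3150 of all genes had an unadjusted p below 0.05. DESeq2 called 3 of the 9, *Gja1*, *Slc1a3* and *Gjb6*, beside 647 of all genes. For 1 of the 9, *Gja1*, all 3 *Nipbl+/-* libraries lay below all 7 *WaplΔ/+* libraries (log2 fold change -0.40, SE 0.108, edgeR adjusted p = 0.123). The share of all genes that did so in this comparison was not computed. All 3 *Nipbl+/-* libraries and 2 of the 7 *WaplΔ/+* libraries were of the low *mt-Nd3* set. In that set alone *Gja1* was -0.20, and 8 of all genes were called, beside 354 in the main fit. The part of the *mt-Nd3* set in this comparison was not tested.

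The interaction term asked whether the effect of one mutation depended on the other. It was above 0 for all 9 genes, which means that the level in double heterozygotes was higher than the sum of the 2 single effects would give, but none was called, none of the 30552 genes was (0%), and 2 of the 9 and 4221 of all genes had an unadjusted p below 0.05. DESeq2 called none of the 9 and 793 genes in all, and without double replicate 6 edgeR called 945 genes in all and still none of the 9. The largest terms were those of *Gfap* (0.94, 95% interval -0.01 to 1.89) and *Aqp4* (0.68, 0.06 to 1.30), which were 1.70 and 1.15 without *Nipbl+/-* replicate 2 and not called. The 9 terms share all 21 libraries and are not 9 separate observations.

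**Figure D3:**
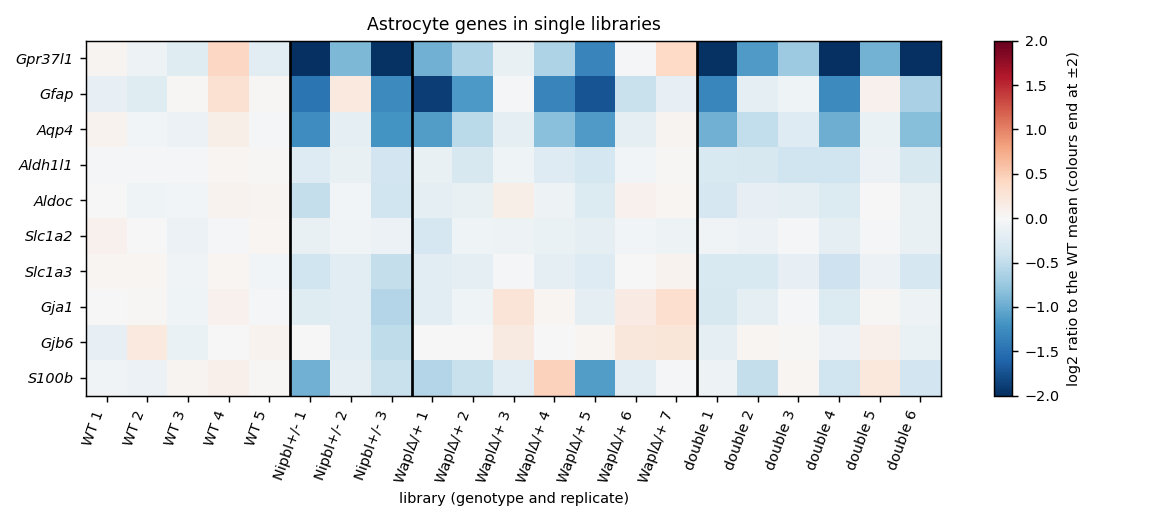
Log2 ratio of each astrocyte gene to its WT mean (colour, ending at ±2) in single libraries, ordered by genotype and replicate (horizontal axis). Blue, for below WT, covers most rows of Nipbl+/- 1 and 3, double 1, 4 and 6 and WaplΔ/+ 1 and 5, while WaplΔ/+ 7 is close to WT in most rows, as is double 5 apart from Gpr37l1, at 51.8% of the WT mean.

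Read by library, the 9 tested genes were counted where they lay below every *WT* library, beside the same share over all genes tested. In *Nipbl+/-* replicates 1, 2 and 3 these were 8, 6 and 9 of the 9, against 23.3%, 19.5% and 21.6% of all genes. In the double libraries they ran from 3 of 9 in replicate 5 (25.0% of all genes) to 8 in replicates 4 and 6 (21.3% and 22.1%). The *WaplΔ/+* libraries ran from 0 of 9 in replicate 7 (19.3% of all genes) to 8 in replicates 1 and 5 (23.6% and 25.2%). By the median log2 ratio to *WT* over the 10 genes, the lowest *WaplΔ/+* libraries, at -0.27 and -0.32, lay between *Nipbl+/-* replicate 2 (-0.19) and *Nipbl+/-* replicates 1 and 3 (-0.44 and -0.49).

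The genes also differed in how tightly they were held within a genotype. The within-group SD of log2 levels was 0.64 for *Gfap*, 0.58 for *Gpr37l1*, 0.40 for *Aqp4* and 0.35 for *S100b*. It was 0.08 for *Slc1a2* and at most 0.16 for the remaining 5. Among genes of similar level, 99.8% had a smaller SD than *Gfap* and 99.7% a smaller SD than *Aqp4*, while for *Slc1a2* the share was 62.5%. Once group means were removed, levels correlated above 0 in 44 of the 45 pairs of genes over the 21 libraries, with a median Pearson r of 0.655. The highest was that of *Gfap* and *Aqp4* (0.959), followed for *Gpr37l1* by *Aqp4* (0.929), *Slc1a3* (0.895) and *Gfap* (0.894). The points share their library, with its depth and its makeup of cells, and these correlations are given as a description.

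**Figure D4:**
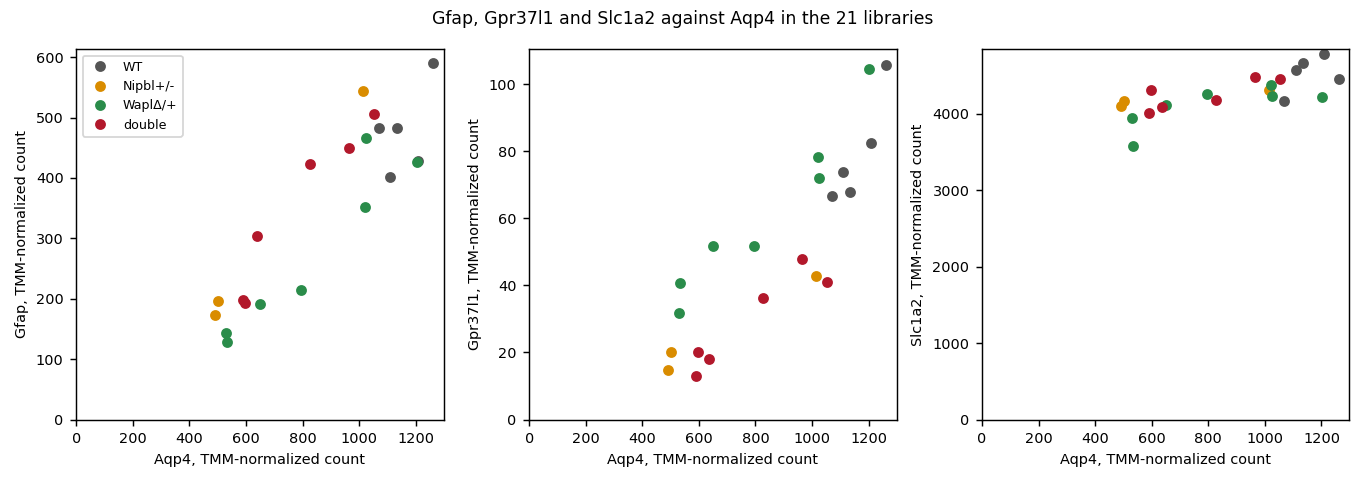
TMM-normalized counts of Gfap, Gpr37l1 and Slc1a2 (vertical axes) against those of Aqp4 (horizontal axes) in the 21 libraries, coloured by genotype, all axes from 0. Gfap was higher where Aqp4 was higher, also within genotypes, Gpr37l1 likewise but with the Nipbl+/- and double libraries lower at a given Aqp4 count, and Slc1a2 varied little over the same range of Aqp4.

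The genes whose levels followed those of *Gpr37l1* most closely over the 21 libraries, out of 17302 that averaged 1 CPM or more, were *Slc6a11* (Pearson r = 0.961), *Sertm1* (0.959), *Slc24a3* (0.956), *Gpr17* (0.956) and *Adcy2* (0.956). *Slc6a11* encodes the GABA transporter GAT-3 of astrocytes, and *Gpr17* a receptor of cells that are becoming oligodendrocytes. *Slc1a3* was the member nearest to *Gpr37l1* in this ranking, in place 10. With variance-stabilized counts 4 of the 5 were again in the top 5. After the group means were subtracted 0 of the 5 were, and *Slc7a3*, *Nceh1*, *Rasal1*, *Stum* and *Pla2g7* led. The first 5 genes still had r between 0.890 and 0.918 after that step, in places 11 to 51, and the new leaders 0.937 to 0.947. *Slc6a11* stood at 71.6% ± 17.0 of *WT* in *Nipbl+/-* and 74.1% ± 7.38 in double heterozygotes, and *Gpr17* at 70.01% ± 18.3 and 70.5% ± 10.3 (SD, n = 3 and 6).

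Beyond the 10 members, 70 further genes of the astrocyte lineage were read in 4 lists by role. In *Nipbl+/-*, 28 of the 70 were called lower and 7 higher, in double heterozygotes 18 lower and 3 higher, and in *WaplΔ/+* 3 lower and 1 higher. Over all genes the shares were 6.96% and 4.25%, 2.46% and 0.812%, and 1.45% and 0.769%; of genes averaging 100 or more counts, 20.5%, 6.02% and 3.82% were called in either direction. The median log2 fold changes were -0.17, -0.10 and -0.01, in that order. The lists did not move alike.

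Genes of astrocyte membrane and metabolism were called lower in 11 of 23 cases in *Nipbl+/-* and in 8 of 23 in double heterozygotes, beside 6.96% and 2.46% of all genes, and none was higher in either. *Ednrb*, the endothelin B receptor, fell to 75.2% of *WT* in *Nipbl+/-* (log2 fold change -0.42, SE 0.0481, edgeR adjusted p = 7.56e-05) and to 79.3% in double heterozygotes (-0.32, adjusted p = 0.000148). *Slc4a4*, a sodium bicarbonate cotransporter, fell by 0.79 and by 0.46 on the log2 scale. *Glul*, glutamine synthetase, which turns the glutamate taken up by astrocytes into glutamine, fell by 0.25 and by 0.17. The summed level of the list was 1479.8 to 1817 CPM in *Nipbl+/-* against 1844 to 1986 in *WT*. In *WaplΔ/+* 1 gene of this list was lower, *Dio2* (-0.50), the enzyme that activates thyroid hormone, and 1 higher, *Gjb2* (0.48), a connexin also made by meningeal cells, both named after their values were seen.

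Of genes for secreted and matrix proteins, 9 of 16 were called lower in *Nipbl+/-* and 6 of 16 in double heterozygotes, beside the same shares, again with none higher. *Pla2g7*, a secreted phospholipase, fell by 0.58 and by 0.37 on the log2 scale. *Mfge8*, a bridging protein of phagocytosis, fell by 0.36 and by 0.31. *Timp4*, an inhibitor of metalloproteinases, fell by 0.37 in *Nipbl+/-* and was not called in double heterozygotes (-0.15, edgeR adjusted p = 0.380). In *WaplΔ/+* neither edgeR nor DESeq2 called a gene of this list, and 3 of 16 had an unadjusted p below 0.05.

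Regulators of glial fate went both ways, and in *WaplΔ/+* edgeR called 0 of 20, DESeq2 called 2 and 10 had an unadjusted p below 0.05. In *Nipbl+/-* 3 of 20 were lower and 5 higher, beside 6.96% and 4.25% of all genes, and the median of the list was 0.07. Of genes averaging 100 or more counts, 20.5% were called in either direction. The 3 lower genes were *Lifr* and *Il6st*, receptor subunits for cytokines of the LIF family, and *Bmpr1b*, a receptor for bone morphogenetic proteins. Other genes of these pathways in the list were not called: *Cntfr* (0.08), *Stat3* (0.11), *Id1* (0.08), *Id3* (0.08) and *Bmpr1a* (-0.08). *Lifr* fell by 0.30 (SE 0.0446, edgeR adjusted p = 0.000453) and by 0.20 in double heterozygotes (adjusted p = 0.0108), and *Il6st* by 0.20 in *Nipbl+/-* (in double heterozygotes -0.08, adjusted p = 0.557). The 5 higher genes were *Notch1* (0.33, SE 0.0524, edgeR adjusted p = 0.000771, and 0.20 in double heterozygotes, adjusted p = 0.386), *Lhx2*, *Nfib*, *Nfia* and *Fgfr3*. Of these, *Nfia* and *Nfib*, the nuclear factor I proteins that act early in gliogenesis, were also higher in double heterozygotes, by 0.18 and 0.19. *Bmpr1b*, *Lhx2*, *Nfib*, *Nfia*, *Fgfr3* and the 5 genes not called were named after their values were seen. In double heterozygotes edgeR called 3 of the 20 and DESeq2 called 6, beside 1001 and 1480 of all genes.

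Radial glia genes were likewise mixed, with 5 of 11 lower and 2 higher in *Nipbl+/-* and 3 lower and 1 higher in double heterozygotes. Over all genes 6.96% were called lower and 4.25% higher in *Nipbl+/-*, and 2.46% and 0.812% in double heterozygotes. Of genes averaging 100 or more counts, 20.5% and 6.02% were called in either direction. *Hopx* fell to 63.2% of *WT* in *Nipbl+/-* (-0.67, SE 0.0962, edgeR adjusted p = 0.000380) and to 79.3% in double heterozygotes (-0.32, adjusted p = 0.0209). *Ptprz1* fell in all 3 comparisons with *WT*, by 0.37, 0.24 and 0.24 in *Nipbl+/-*, double and *WaplΔ/+* brain. *Fabp7* fell by 0.26 in *Nipbl+/-* (adjusted p = 0.00348) and was not called in double heterozygotes (-0.15, adjusted p = 0.140). In *WaplΔ/+* *Ptprz1* and *Tnc* were the 2 genes called by edgeR, beside 2.22% of all genes, while DESeq2 called 4. In double heterozygotes DESeq2 called 6 of the 11, beside 1480 of all genes. The 2 higher genes in *Nipbl+/-* were *Nes* and *Sox2*, at 0.22 each, named after their values were seen.

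**Figure D5:**
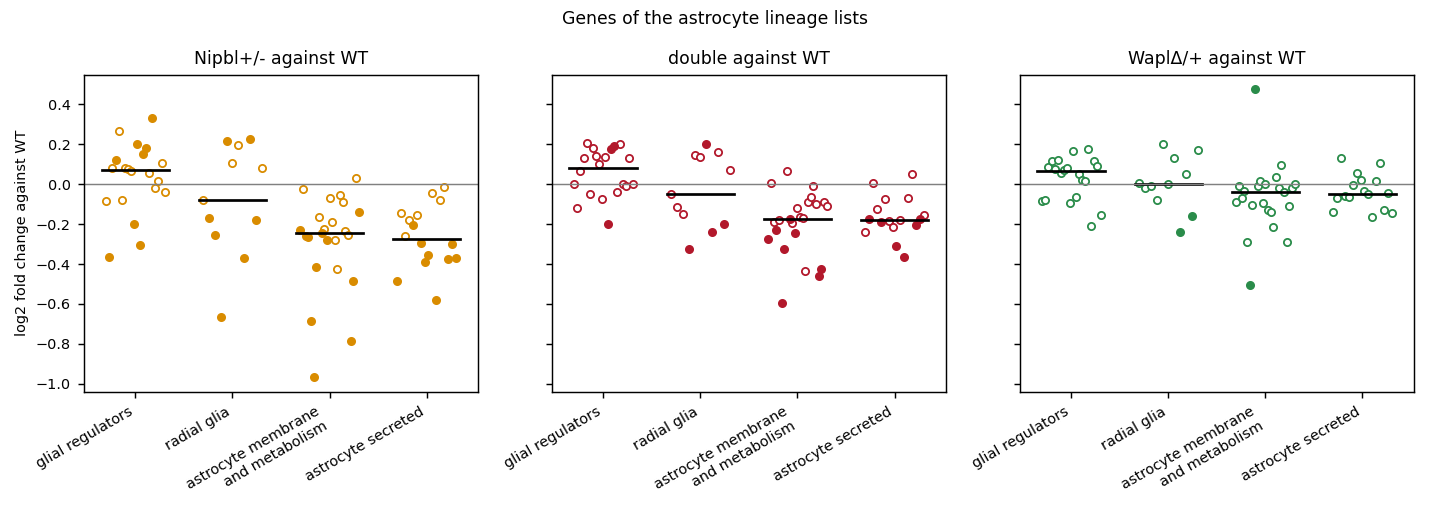
Log2 fold change against WT (vertical axis) of each gene of the 4 astrocyte lineage lists in Nipbl+/-, double heterozygous and WaplΔ/+ brain; filled points passed the test at an adjusted p below 0.10, open points did not, and the black bar is the median of the list. In Nipbl+/- the lists of membrane and metabolism genes (11 of 23 lower) and secreted proteins (9 of 16 lower) hold no filled point above 0, while regulators and radial glia genes have filled points on both sides.

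Markers of other cells were read beside these results, and their counts stand against the same shares over all genes. Oligodendrocyte lineage genes were called lower in 6 of 11 cases in *Nipbl+/-* and 7 of 11 in double heterozygotes, and their summed level was 259 to 312 CPM in *Nipbl+/-* against 327 to 352 in *WT*. Microglia genes were lower in 5 of 9 cases in *Nipbl+/-* (87.1 to 101 CPM against 108 to 127 in *WT*) and in 1 of 9 in double heterozygotes. Border macrophage genes were lower in 2 of 6 cases and 1 of 6. Neuron genes were lower in 2 of 11 cases in *Nipbl+/-*, where 20.5% of all genes averaging 100 or more counts were called. DESeq2 called 3 of the 11 there, and 6 of the 11 had an unadjusted p below 0.05, as did 6117 of all genes. The estimates of 9 of the 11 were below 0, with a median of -0.10 against -0.01 over all genes. In double heterozygotes and *WaplΔ/+* edgeR called 0 of 11 and DESeq2 called 1 each. There 2 and 1 neuron genes had an unadjusted p below 0.05, as did 4123 and 4780 of all genes. The summed level of neuron genes in *Nipbl+/-* overlapped that of *WT* (5685 to 5987 against 5932 to 6287 CPM). Neither edgeR nor DESeq2 called a gene of the choroid plexus, ependyma or blood lists in any of the 3 comparisons, and at most 1 gene of a list had an unadjusted p below 0.05. Meningeal genes were 2 lower and 1 higher of 9 in *Nipbl+/-* and 3 higher in *WaplΔ/+*, and endothelial genes 1 lower and 1 higher of 7 in *Nipbl+/-* and 1 higher in *WaplΔ/+*. No marker of any list was at 0 in a whole group. The part of these shifts in the values of the astrocyte genes was not tested.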

How the data were processed

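Poly(A) RNA of whole brains was sequenced by the authors as 101-base read pairs. Per the labels and the submitters' processing notes, reads were trimmed with cutadapt 2.4, aligned with STAR 2.5.3a to mm10 (GRCm38.p6), and counted per gene with featureCounts (Subread 1.6.4), and MultiQC 1.9 was used for quality control. The deposited values are raw counts per gene in 21 libraries, and 1 further *Nipbl+/-* library that the authors excluded is not analysed here.

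The filter kept genes whose normalized counts added up to 10 or more across the 21 libraries. Each comparison was fitted on its own groups by the quasi-likelihood method of edgeR 4.0.16 under R 4.3.3, after TMM scaling, and p-values were adjusted by Benjamini-Hochberg over all 30552 genes, with a call below 0.10. Gene spans came from RefSeq (GRCm38.p6), in which all 10 members matched by symbol. Named genes were the 10 members, up to 3 genes per astrocyte lineage list with the smallest p in *Nipbl+/-* against *WT* among genes called in a comparison with *WT*, and the 5 genes with the highest Pearson r with *Gpr37l1* on log2 CPM (prior count 2). The members and lists were chosen with earlier results of these data known. The scripts were tested on simulated data. Alternatives were DESeq2 1.42.0, its size factors, no filter, a filter at a mean of 100, a threshold of 0.05, 1 fit of all groups, a replicate block, the *mt-Nd3* set as a term or low libraries alone, and leaving out each library in turn. Libraries of a genotype came from separately labelled samples. The labels do not name the embryo behind each, so p-values measure the spread between these libraries.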

Additional observations from a re-analysis of the deposited data

Results flagged for a closer look

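Of 30 groups of 5 to 7 libraries, 1 had a library far from the rest by Dixon's criterion, and chance flags about 1 in 20 such groups. *Aldh1l1* in double heterozygote replicate 5 had 2369 normalized counts, and the next library of the genotype had 2082. The gap was 0.682 of the range of the group, above the critical value for 6 libraries. The same library was the double heterozygote with the fewest of the 9 tested genes below all *WT* libraries, 3, and it belonged to the high *mt-Nd3* set.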

How the results depend on the processing

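The 6 of 9 genes called in *Nipbl+/-* against *WT* were 6 to 8 when 1 library was left out and 4 to 7 under the other alternatives, and the 3 of 9 called in double heterozygotes were 3 to 6 and 2 to 4. *S100b* in *Nipbl+/-* lost its call with the *mt-Nd3* set as a term (-0.46), in low *mt-Nd3* libraries alone (-0.46) and in 1 fit of all groups (-0.47), *Aldoc* lost it in low *mt-Nd3* libraries alone (-0.26), and *Aqp4* in double heterozygotes lost it in 1 fit of all groups (-0.55, adjusted p = 0.188). *Gfap* in *Nipbl+/-* was called without the filter on low counts.

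In *WaplΔ/+* against *WT*, where edgeR called 0 of the 9, DESeq2 called 2, no filter 3, a mean of at least 100 counts 1, the *mt-Nd3* term 1, low *mt-Nd3* libraries 2, and leaving out 1 library 0 to 3, the most without *WaplΔ/+* replicate 6 or 7. Of the 70 lineage genes, of which 4 were called there, the count was 8 with DESeq2, 8 without a filter, 1 in low *mt-Nd3* libraries, 1 in 1 fit of all groups, 2 at 0.05, and 1 to 11 without 1 library. All genes called there numbered 677, and 9 to 1534 without 1 library (9 without *WT* replicate 2). The 3422 called in *Nipbl+/-* ran from 1828 to 4788, and the 1001 in double heterozygotes from 454 (without *WT* replicate 4) to 2504 (without double replicate 5), so the shares over all genes move as well. In *Nipbl+/-* the 35 lineage genes called were 22 in low *mt-Nd3* libraries, 16 in 1 fit of all groups and 22 to 50 without 1 library, and in double heterozygotes the 21 were 12 in 1 fit of all groups and 10 to 40 without 1 library (10 without *WT* replicate 4, 40 without double replicate 5). Between *Nipbl+/-* and *WaplΔ/+* the 0 of 9 were 3 with DESeq2, 2 without a filter, 2 in 1 fit of all groups and 0 to 2 without 1 library. All genes called in that comparison numbered 354, with 8 in low *mt-Nd3* libraries alone and 647 with DESeq2. The cause of these shifts was not tested.

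The replicate numbers were not taken to pair libraries, since in no pair of groups did every same-numbered pair deviate together with a correlation over 0.1. The correlations ran from -0.272 to 0.450, and those between *Nipbl+/-* and double heterozygotes from 0.0169 to 0.353. With a replicate block, 5 of the 9 genes and 25 lineage genes were called in *WaplΔ/+*, and 12 lineage genes in double heterozygotes. Over all genes the block gave 1991 calls in *WaplΔ/+*, beside 677 in the main fit. In double heterozygotes it gave 535, beside 1001. In *Nipbl+/-* *S100b* lost its call (-0.48, adjusted p = 0.132) and *Gfap* gained one (adjusted p = 0.0793). *Gja1* in *WaplΔ/+* was then -0.029, and *Aqp4* in double heterozygotes against *WaplΔ/+* 0.046.

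Signs turned only in results that were not called. With low *mt-Nd3* libraries alone these were *Gja1* in *WaplΔ/+* (-0.12), *Aqp4* in double heterozygotes against *WaplΔ/+* (0.17), and *Aqp4* (0.014) and *S100b* (0.019) in *Nipbl+/-* against *WaplΔ/+*. With the *mt-Nd3* term the last 3 were 0.049, 0.011 and 0.018. Without 1 library, *Gjb6* ran from -0.073 to 0.019 in double heterozygotes against *WT* and from -0.045 to 0.18 in the interaction. In double heterozygotes against *Nipbl+/-*, *Gfap* ran from -0.11 to 0.91 and *Aldh1l1* from -0.11 to 0.015. Against *WaplΔ/+*, *S100b* ran from -0.015 to 0.24 and *Aqp4* from -0.18 to 0.036 in double heterozygotes, and *Gfap* from -0.58 to 0.43 in *Nipbl+/-*. Depth limits *Gpr37l1* and *S100b* most, with as few as 12 and 36 reads in a library, and every comparison with *Nipbl+/-* rests on 3 libraries, all of the low *mt-Nd3* set.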
